A study of Mus musculus with 6 samples.

Results

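The transcripts examined here encode 7 proteins of cardiac electrical conduction: the sodium channel subunit Scn4b, the pacemaker channels Hcn2 and Hcn4, the gap junction proteins Gja1, Gja5 and Gjc1, and the Popeye protein Popdc2. They were found by symbol, through their Ensembl gene IDs in GENCODE M21, and are 7 of the 54532 genes in the table. RNA-seq was performed on primary cardiomyocytes from the hearts of newborn mice with a modified Rit1 gene, from which Cre turns on expression of the M90I mutant. RIT1 is a GTPase related to RAS. The 3 control cultures received an adenovirus encoding GFP (AdGFP, labelled Rit1 +/+) and the 3 others one encoding GFP-Cre (AdCre, labelled Rit1 M90I/+), both on day 3 after isolation. All 6 samples thus carried the modified gene, an adenovirus and GFP. Cells collected over repeated digestions were pooled, and those that stick to bare plastic were set aside before plating. Wild-type cells given AdCre were not analysed here. The M90I variant and the recombinase therefore cannot be told apart.

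Each heartbeat starts in the sinus node, where HCN channels open at negative voltage, bind cyclic AMP and carry the pacemaker current. Voltage-gated sodium channels, made of a pore subunit and smaller beta subunits, drive the upstroke of the action potential in working muscle and in the fast conduction system. Connexins join neighbouring cells through gap junctions so that the impulse passes between them, and Popeye proteins are membrane proteins that bind cyclic AMP and take part in the control of heart rate.

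Levels are given in FPKM, a count of fragments divided by exon length and by sequencing depth. Computed back from FPKM, the libraries held between 25.2806 and 26.5456 megareads in AdGFP and between 25.9781 and 32.4332 megareads in AdCre, and between 21230 and 23026 genes had a value above 0. Rit1 itself had means and SDs of 8.55 ± 0.774 FPKM (AdGFP) and 9.19 ± 0.351 FPKM (AdCre), a log2 difference of 0.11 with an SE of 0.12 (limma adjusted p 0.84), and these gene-level values do not separate the M90I allele. Differences were tested on the scale log2(FPKM + 0.1) in those 13794 genes whose mean reached 0.5 FPKM, and a gene was said to pass at an adjusted p under 0.05. The labels give both groups the replicate numbers 1 to 3. Same-numbered samples deviated together, so differences within these 3 pairs and a fit with the replicate number as a block are given where they change a call. In the blocked fit 848 genes passed, but 0 did without limma's intensity trend and 1 did without pair 3. Every blocked call from FPKM below was thus lost without the trend.

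All 12 cardiomyocyte markers were above the level needed for testing, and their summed level lay between 2632.3 and 3726.9 FPKM in AdGFP and between 1557.8 and 2577.4 FPKM in AdCre. The 12 were all lower in AdCre by their means, with a median log2 difference of -0.75, and 0 of them passed in limma without the replicate block, where 0.00725% of all genes tested did. Of the 12 markers 7 were at an unadjusted p under 0.05, beside 10.2% of all genes. With the block 7 passed (Actn2, Atp2a2, Mybpc3, Pln, Ryr2, Tnni3 and Tnnt2), where 3.51% of all genes tested passed as lower. The cultures also held other cells. The 8 fibroblast markers summed to between 2588.9 and 4643.8 FPKM in AdGFP and between 2272.0 and 3323.9 FPKM in AdCre, and the 9 endothelial markers to between 94.1 and 146.1 FPKM and between 138.3 and 205.4 FPKM. All 9 endothelial markers were higher in AdCre by their means, and 4 of them (Cdh5, Egfl7, Eng and Flt1) passed with the block, where 2.64% of all genes tested passed as higher. Without the block 0 of the 9 passed in limma, and 3 had an unadjusted p under 0.05, beside 10.2% of all genes.

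In the order of their levels, Popdc2 and Gja1 led in both groups, at means of 143.2 and 104.4 FPKM in AdGFP and 98.5 and 57.7 FPKM in AdCre. Popdc2 and Gja1 overlapped in range in both groups. Both lay above Gjc1 in every sample, and Scn4b was the lowest of the 7 in every sample. In AdGFP the order went on with Gjc1, Gja5, Hcn2 and Hcn4, and in AdCre Hcn2 stood before Gja5. The ranges of Gjc1 and Gja5 overlapped in AdGFP, as did those of Gja5 and Hcn2, and in AdCre Hcn2 overlapped with both Gjc1 and Gja5. Hcn4 lay below these 3 genes in every sample.

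**Figure D1:**
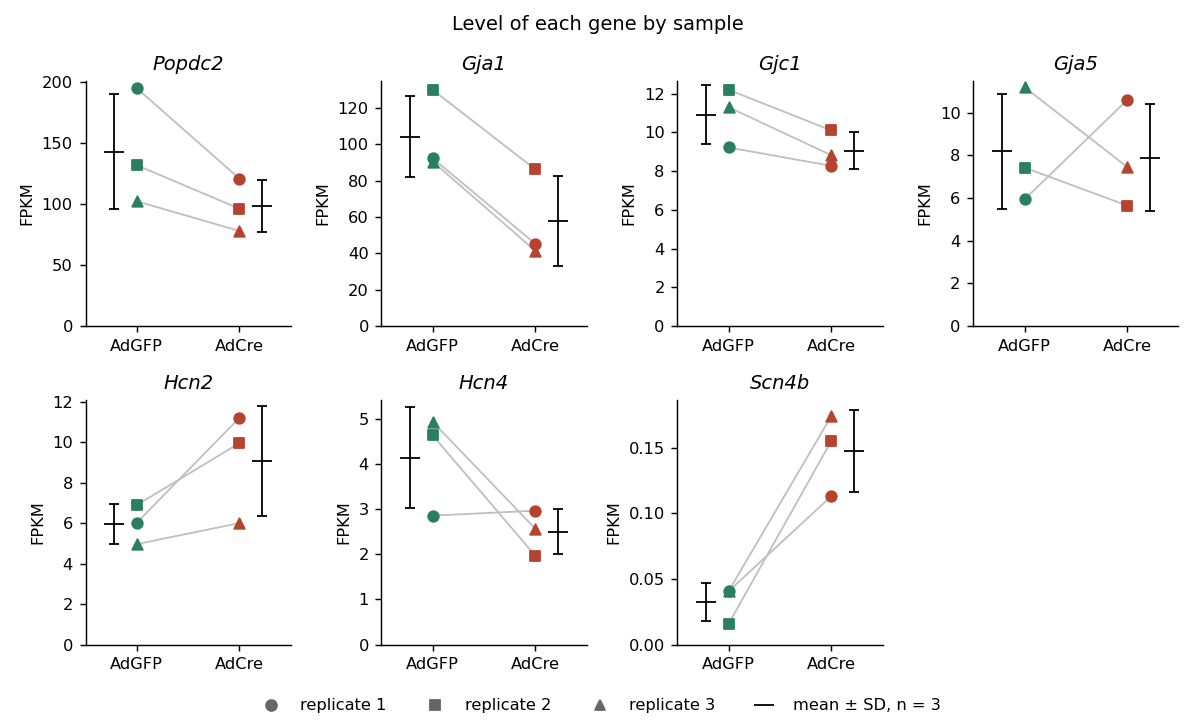
Level in FPKM (vertical axes, each from 0) of the 7 genes in the AdGFP and AdCre samples. Symbols mark the replicate number, grey lines join samples of the same number, and the bars beside the points are the mean ± SD of 3 samples. The groups are apart for Gja1 and Scn4b and overlap for the others.

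Of the 7 genes, 6 reached the level for testing, and 0 of the 6 passed in the limma fit without the block, where 0.00725% of all genes tested did. At an unadjusted p under 0.05 there were 2 (Hcn4 and Gja1), where 10.2% of all genes tested had such a p. The groups did not overlap for 1 of the 6, Gja1, beside 15.4% of all genes tested, of which 7.36% were higher and 8.02% lower in AdCre. With the replicate block 2 of the 6 passed, Gja1 and Popdc2, both lower in AdCre, where 6.15% of all genes tested passed in either direction and 3.51% in that direction. At an unadjusted p under 0.05 in the blocked fit there were 5 of the 6, all but Gja5, beside 24.7% of all genes tested. In 5 of the 7 genes the 3 pairs differed one way, which 48.4% of all genes tested also did. Gja1, Gjc1 and Popdc2 were lower in each AdCre sample than in its pair, and Scn4b and Hcn2 were higher.

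Gja1 encodes Cx43, the gap junction protein of the working ventricle, which cardiac fibroblasts also make. The gene (ENSMUSG00000050953) lies on chromosome 10 from 56377330 to 56402513 (GRCm38). It stood at 92.4, 130.1 and 90.6 FPKM in AdGFP 1 to 3 and at 45.3, 86.3 and 41.4 FPKM in AdCre 1 to 3. All 3 AdCre samples lay below the lowest AdGFP sample, and the replicate 2 samples were the highest of both groups. The means were 104.4 ± 22.3 and 57.7 ± 24.9 FPKM (SD, n = 3 each), and the exact two-sided permutation test gave p 0.1, the smallest it can give with 3 samples against 3. The log2 difference was -0.92 with an SE of 0.30 and a 95% interval from -1.63 to -0.20 (limma adjusted p 0.374). Within the pairs it was -1.03, -0.59 and -1.13, and with the block the SE was 0.12, the interval from -1.21 to -0.62 and the adjusted p 0.0214. That call was lost without a filter on low values (adjusted p 0.0842), without the intensity trend (0.0803) and without pair 3 (0.101).

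Popdc2 (ENSMUSG00000022803, chromosome 16, 38362209 to 38378216) encodes a Popeye protein of heart and skeletal muscle. It stood at 195.2, 132.0 and 102.4 FPKM in AdGFP 1 to 3 and at 121.0, 96.3 and 78.0 FPKM in AdCre 1 to 3. In both groups replicate 1 was the highest and replicate 3 the lowest, and the highest AdCre sample lay above the lowest AdGFP sample. The means were 143.2 ± 47.4 and 98.5 ± 21.6 FPKM (SD, n = 3 each), with a log2 difference of -0.51, an SE of 0.27 and a 95% interval from -1.15 to 0.13 (limma adjusted p 0.598), and it was -0.26 without AdGFP 1, the highest sample. The pair differences of -0.69, -0.45 and -0.39 spread less than the samples of a group did. With the block the SE was 0.09, the interval from -0.73 to -0.30 and the adjusted p 0.0346. That call was lost without a filter (adjusted p 0.114), without the trend (0.103), without pair 2 (0.12) and without pair 3 (0.118). Of the exon bases of Popdc2, 3.77% are shared with another gene on the same strand.

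The bases before the transcription start are shown for Gja1 and Popdc2, the genes that passed with the block, and for Hcn2 and Hcn4, the pacemaker channels whose means differed in opposite directions. The sequences are RefSeq (GRCm38.p6), 250 bases ending just before the RefSeq start, which need not be the GENCODE start. Windows of 300 bases, 250 before the start and 50 after it, were found for Scn4b, Hcn2, Hcn4, Gja1, Gja5 and Popdc2, and 10 motifs were searched in them on both strands. Capitals mark the matches, apart from those of the E-box CANNTG, which 72.3% of all windows hold.
Gja1, chr10:56377050-56377299, + strand: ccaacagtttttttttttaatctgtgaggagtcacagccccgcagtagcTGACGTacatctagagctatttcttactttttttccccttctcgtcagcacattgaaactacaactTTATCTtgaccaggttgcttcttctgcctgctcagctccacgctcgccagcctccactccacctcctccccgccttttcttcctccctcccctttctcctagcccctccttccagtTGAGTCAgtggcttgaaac
Popdc2, chr16:38361940-38362189, + strand: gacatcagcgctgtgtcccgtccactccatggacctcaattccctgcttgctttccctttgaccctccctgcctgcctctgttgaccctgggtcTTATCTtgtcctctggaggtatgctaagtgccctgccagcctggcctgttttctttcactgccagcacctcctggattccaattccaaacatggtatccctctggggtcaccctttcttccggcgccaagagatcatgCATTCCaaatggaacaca
Hcn2, chr10:79716384-79716633, + strand: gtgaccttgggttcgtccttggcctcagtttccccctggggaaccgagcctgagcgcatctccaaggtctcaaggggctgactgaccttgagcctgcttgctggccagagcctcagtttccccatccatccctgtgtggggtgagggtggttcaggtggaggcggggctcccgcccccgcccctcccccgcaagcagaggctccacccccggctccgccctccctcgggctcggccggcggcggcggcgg
Hcn4, chr9:58822699-58822948, + strand: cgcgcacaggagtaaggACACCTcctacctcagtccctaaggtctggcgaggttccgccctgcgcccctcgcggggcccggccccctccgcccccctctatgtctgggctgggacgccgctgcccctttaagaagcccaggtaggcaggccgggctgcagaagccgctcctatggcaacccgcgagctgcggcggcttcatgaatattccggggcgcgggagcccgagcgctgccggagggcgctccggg
In the Gja1 sequence the capitals are the CRE half-site TGACGT at position -201 from the start, the GATA element AGATAA on the reverse strand at -135 and the AP-1 element TGANTCA at -19. Popdc2 has the GATA element on the reverse strand at -156 and the TEAD element CATTCC at -18. Hcn4 has the T-box half-site AGGTGT on the reverse strand at -233, and in Hcn2 and Gja5 the E-box was the only motif found. Of all 32851 windows, 7.51% held the CRE half-site, 11.2% the GATA element, 7.81% the AP-1 element, 14.7% the TEAD element and 13.7% the T-box half-site, so the matches are a description of the letters. In Scn4b the TEAD element begins at -1, across the start. The NKX2-5 element TNAAGTG, the TATA box TATAAA, the ETS core ACTTCCT and the interferon response element matched in none of the 6 windows and in 11.5%, 13.6%, 9.35% and 3.44% of all windows. The printed bases were 54.4% G and C for Popdc2, near the median of 52.4% over all windows, somewhat less for Gja1, and 70.4% for Hcn2 and 71.2% for Hcn4.

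Among the other Popeye genes, Bves stood at 20.5, 14.9 and 10.6 FPKM in AdGFP 1 to 3 and at 6.35, 9.35 and 4.71 FPKM in AdCre 1 to 3. Its groups did not overlap, and the log2 difference was -1.17 with an SE of 0.31 (limma adjusted p 0.312, and 0.0312 with the block). Popdc3 averaged 19.3 ± 10.8 FPKM (AdGFP) and 9.86 ± 3.54 FPKM (AdCre), with a log2 difference of -0.89 and an SE of 0.42 (limma adjusted p 0.544, and 0.0269 with the block), and without AdGFP 1 it was -0.47. The 3 Popeye genes thus passed together with the block, where 3.51% of all genes tested passed as lower. Without it 0 of 3 passed, beside 0.00725% of all genes tested. In that limma fit 1 (Bves) had an unadjusted p under 0.05, beside 10.2% of all genes tested. The difference was larger for Bves than for Popdc2 in every pair: the log2 ratio of Popdc2 to Bves was 3.24, 3.14 and 3.26 in AdGFP and 4.23, 3.35 and 4.02 in AdCre. These ratios did not overlap between the groups (difference 0.65, exact two-sided permutation p 0.1, and 0.2 when adjusted over 6 ratios).

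The other cardiac connexins were examined next. Gjc1 encodes Cx45, found in the nodes and in the early heart, and the gene (ENSMUSG00000034520) lies on the reverse strand of chromosome 11 from 102799579 to 102819700. It stood at 9.22, 12.2 and 11.3 FPKM in AdGFP 1 to 3 and at 8.27, 10.1 and 8.82 FPKM in AdCre 1 to 3. AdCre was lower in each pair, by a small margin, and the groups overlapped. The log2 difference was -0.26 with an SE of 0.15 and a 95% interval from -0.61 to 0.10 (limma adjusted p 0.638, and 0.137 with the block), and -0.17 without AdGFP 2.

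Gja5 encodes Cx40, the connexin of the atria, the fast conduction system and arterial endothelium, and the gene (ENSMUSG00000057123) spans chromosome 3 from 96904693 to 97077416. It stood at 5.94, 7.43 and 11.2 FPKM in AdGFP 1 to 3 and at 10.6, 5.65 and 7.46 FPKM in AdCre 1 to 3. The groups overlapped almost wholly, and pair 1 differed in the opposite direction (0.83 on the log2 scale) from pairs 2 and 3 (-0.39 and -0.58). The log2 difference was -0.05 with an SE of 0.30 and a 95% interval from -0.76 to 0.66 (limma adjusted p 0.985), and its sign changed with the scaling. Of the 50-base words in the Gja5 transcripts, 13.2% also occur in transcripts of other genes and 2.87% of its exon bases lie opposite another gene, so part of its reads may be counted differently by another pipeline. Arterial endothelial markers, 6 in number, summed to between 32.0 and 38.9 FPKM in AdGFP and between 28.2 and 45.5 FPKM in AdCre, and 0 of them passed in either limma fit, with 0 at an unadjusted p under 0.05 without the block. The 7 atrial markers, the secreted peptide gene Nppa among them, summed to between 2958.6 and 5129.5 FPKM in AdGFP and between 2069.0 and 3717.4 FPKM in AdCre, and their part in the level of Gja5 was not tested.

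Within a sample, Gja1 made up 85.9%, 86.9% and 80.1% of the summed FPKM of the 3 connexins in AdGFP and 70.6%, 84.5% and 71.8% in AdCre. AdCre 2 lay within the range of AdGFP and the other AdCre samples below it. The means were 84.3% ± 3.67 and 75.6% ± 7.74 (SD, n = 3 each), a difference of -8.67 percentage points (exact two-sided permutation p 0.2). Gja5 made up 6.81% ± 2.73 and 11.7% ± 5.62, and Gjc1 8.9% ± 0.941 and 12.7% ± 2.68. The log2 ratio of Gja5 to Gja1 differed by 0.87 and that of Gjc1 to Gja1 by 0.66, both higher in AdCre in each pair (exact permutation p 0.2, adjusted 0.24, for each). Leaving out AdCre 1 gave 0.50 for Gja5 to Gja1, and leaving out AdCre 2 gave 1.41, with a difference in the Gja1 share of -13.12 percentage points. The ratio of Gja5 to Gjc1 differed by 0.21 (exact permutation p 0.7).

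**Figure D2:**
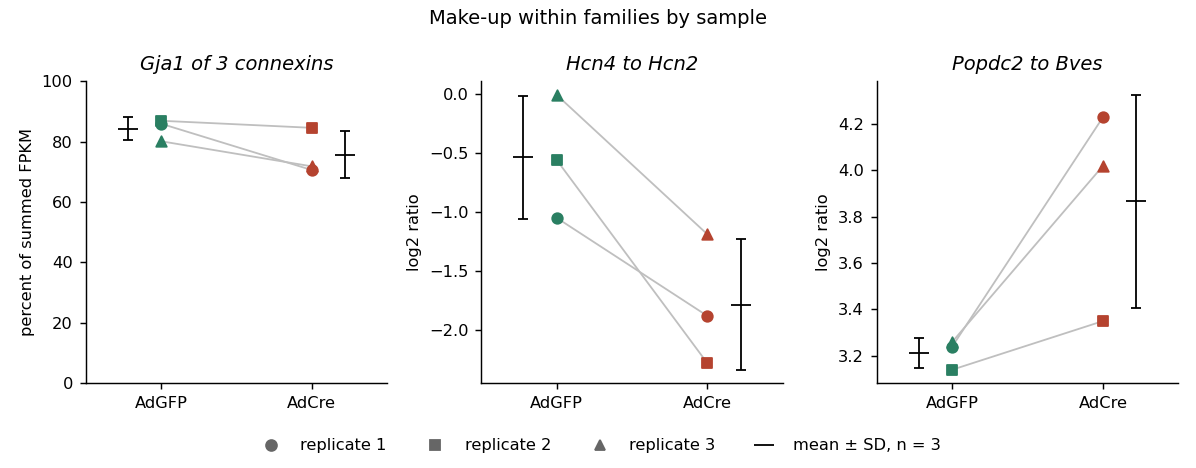
Gja1 as percent of the summed FPKM of Gja1, Gja5 and Gjc1 (left, axis from 0 to 100), and the log2 ratios of Hcn4 to Hcn2 and of Popdc2 to Bves (middle and right), in each AdGFP and AdCre sample. Symbols mark replicate numbers, lines join pairs and bars show the mean ± SD of 3 samples. The groups overlap for the share of Gja1 and are apart for both ratios.

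Of 23 connexin and pannexin genes, 11 were tested and Gjb6 and Gje1 were listed at 0 in all samples. The 11 had a median log2 difference of 0.05, beside 0.0 over all genes tested, with 6 higher and 5 lower by their means. In the limma fit without the block 0 of them passed, and 2 had an unadjusted p under 0.05, Gja1 and Panx1, beside 10.2% of all genes tested. With the block Gja1 and Panx1 passed, beside 6.15% of all genes. Panx1, which forms large-pore channels and not gap junctions, was at 1.98, 1.51 and 1.78 FPKM in AdGFP and at 3.14, 2.41 and 2.79 FPKM in AdCre, higher in AdCre without overlap (log2 difference 0.63, SE 0.18, limma adjusted p 0.324, and 0.0442 with the block). Gja3, Gja4, Gjb5 and Gjd3 had log2 differences of -0.42, 0.10, -0.04 and 0.43, and each had overlapping groups. Without AdCre 3 that of Gja3 was -0.05.

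The 11 gap junction partners are mostly proteins of the intercalated disc and its adhesion complexes, with the kinases Src and Csnk1d. Of these, 8 were lower by their means and 0 passed without the block in limma, 4 with an unadjusted p under 0.05 (10.2% of all genes tested had one). With the block 3 passed, all lower, beside 3.51% of all genes: the desmosomal genes Dsg2 (-0.88, SE 0.10, adjusted p 0.0151), Pkp2 (-0.71, SE 0.11, adjusted p 0.0286) and Dsp (-0.40, SE 0.07, adjusted p 0.0397). Dsg2 stood at 12.7, 12.1 and 10.2 FPKM in AdGFP and at 6.21, 7.33 and 5.41 FPKM in AdCre, without overlap. Cxadr, the coxsackievirus and adenovirus receptor of cell junctions, stood at 19.8 ± 2.31 and 13.6 ± 1.44 FPKM without overlap (log2 difference -0.53, SE 0.14, limma adjusted p 0.299, and 0.0702 with the block). Tjp1, whose product ZO-1 binds Cx43, was at 20.1 ± 1.24 and 20.8 ± 2.43 FPKM. Dsp is named here after its values were seen, and Tjp1 likewise.

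The means of the pacemaker channels lay in opposite directions, and neither passed in the FPKM fits of all samples, with or without the block. Hcn2 (ENSMUSG00000020331, chromosome 10, 79716634 to 79736108), which is found throughout the heart and in neurons, stood at 6.02, 6.89 and 4.96 FPKM in AdGFP 1 to 3 and at 11.2, 9.95 and 6.0 FPKM in AdCre 1 to 3. AdCre was higher in each pair, by 0.89, 0.52 and 0.27 on the log2 scale, but AdCre 3 lay within the range of AdGFP. The log2 difference was 0.56 with an SE of 0.25 and a 95% interval from -0.04 to 1.16 (limma adjusted p 0.519, and 0.0696 with the block). Hcn2 did pass in a blocked voom fit of reads worked back from FPKM (0.66, adjusted p 0.0133). Hcn4 (ENSMUSG00000032338, chromosome 9, 58823412 to 58863175) is the main pacemaker channel of the sinus node. It stood at 2.86, 4.64 and 4.94 FPKM in AdGFP 1 to 3 and at 2.97, 1.97 and 2.57 FPKM in AdCre 1 to 3. AdGFP 1 was low, near its pair, while the other AdCre samples lay well below theirs (pair differences 0.05, -1.20 and -0.92 on the log2 scale). The log2 difference was -0.69 with an SE of 0.25 and a 95% interval from -1.29 to -0.09 (limma p 0.0295, adjusted 0.426, and adjusted 0.159 with the block). The blocked difference was -1.06 without pair 1 (adjusted p 0.0155), -0.43 without pair 2 (0.446) and -0.57 without pair 3 (0.415).

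The ratio of Hcn4 to Hcn2 within a sample does not depend on how libraries were scaled, apart from the pseudocount. On the log2 scale it was -1.05, -0.56 and -0.01 in AdGFP 1 to 3 and -1.88, -2.28 and -1.19 in AdCre 1 to 3. The ratio was lower in every AdCre sample than in any AdGFP sample, with pair differences of -0.84, -1.72 and -1.19. The difference of means was -1.25, equal to 0.421 times the AdGFP ratio (exact two-sided permutation p 0.1, and 0.2 when adjusted over 6 ratios).

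Of the 11 genes of HCN and other pacemaker channels, 7 were tested, and their median log2 difference was -0.67 (-0.39 without AdGFP 3), with 2 higher and 5 lower by their means. In limma 0 passed with or without the block, while 2 (Hcn4 and Cacna1g) had an unadjusted p under 0.05 without it, beside 10.2% of all genes tested. Cacna1g, a T-type calcium channel of pacemaker cells, stood at 2.54, 5.05 and 6.01 FPKM in AdGFP and at 2.34, 2.40 and 2.55 FPKM in AdCre, so that AdGFP 1 was again close to its pair. The log2 difference of Cacna1g was -0.79 (SE 0.30, limma adjusted p 0.452). The T-type channel gene Cacna1h and the potassium channel genes Kcnj3 and Kcnj5 had log2 differences of -0.62, -0.67 and 0.14, with overlapping groups. Without AdCre 3 that of Cacna1h was -0.28, and without AdGFP 3 that of Kcnj3 was -0.20. Sinus node markers were scarce: Isl1 did not exceed 0.301 FPKM in any sample, Shox2 was at 0.806 ± 0.207 and 0.766 ± 0.0473 FPKM, and the list of 6 summed to between 21.9 and 25.3 FPKM in AdGFP and between 17.2 and 19.2 FPKM in AdCre, most of it Tbx18. Isl1 and Shox2 are named after their values were seen.

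Scn4b encodes the beta4 subunit of sodium channels, and the gene (ENSMUSG00000046480) lies on chromosome 9 from 45138395 to 45154152. It was barely detected, at 0.0406, 0.0158 and 0.0407 FPKM in AdGFP 1 to 3 and 0.113, 0.155 and 0.174 FPKM in AdCre 1 to 3, below the level for testing. Worked back, these values are 5, 2 and 5 reads in AdGFP and 18, 20 and 24 reads in AdCre. Every AdCre sample was above every AdGFP sample, at few reads in each. The exact Poisson 95% intervals of the reads, which cover counting error only, ran from 0.242 to 11.7 over the AdGFP samples and from 10.7 to 35.7 over the AdCre samples, so that the interval of AdCre 1 overlapped those of AdGFP 1 and 3. The means of 0.0324 ± 0.0143 and 0.147 ± 0.0313 FPKM (SD, n = 3 each) stood at a ratio of 4.55 (exact two-sided permutation p 0.1). In the FPKM fit without a filter on low values, the log2 difference was 0.90 with an SE of 0.24 and a 95% interval from 0.32 to 1.48 (limma adjusted p 0.45, and 0.243 with the block).

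Of the 14 sodium channel subunits 5 were tested, 4 higher and 1 lower by their means. In limma 0 passed with or without the block, with 1 (Scn3b) at an unadjusted p under 0.05 without it, beside 10.2% of all genes tested. The beta subunit gene Scn3b was at 1.80, 1.10 and 0.743 FPKM in AdGFP and at 1.58, 2.41 and 2.93 FPKM in AdCre (log2 difference 0.91, SE 0.36, unadjusted p 0.0376 and adjusted p 0.455 in limma). Scn2b and the pore subunit Scn10a had log2 differences of 0.24 and 0.43, which rested on single samples: they were 0.08 without AdGFP 3 and 0.02 without AdCre 1. Of 15 sodium channel partners 13 were tested, 10 of them lower by their means, and 0 passed in limma with or without the block, with 4 at an unadjusted p under 0.05 without it, beside 10.2% of all genes tested. The groups of these 4 did not overlap, as for 15.4% of all genes. The 3 with the smallest p were Slmap (-0.38), Fgf13 (-0.42) and Camk2d (-0.37), each lower in AdCre. The fourth, Nedd4l, was higher (log2 difference 0.31, limma p 0.0499, adjusted 0.492), and is named after its values were seen. Rangrf was listed at 0.

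**Figure D3:**
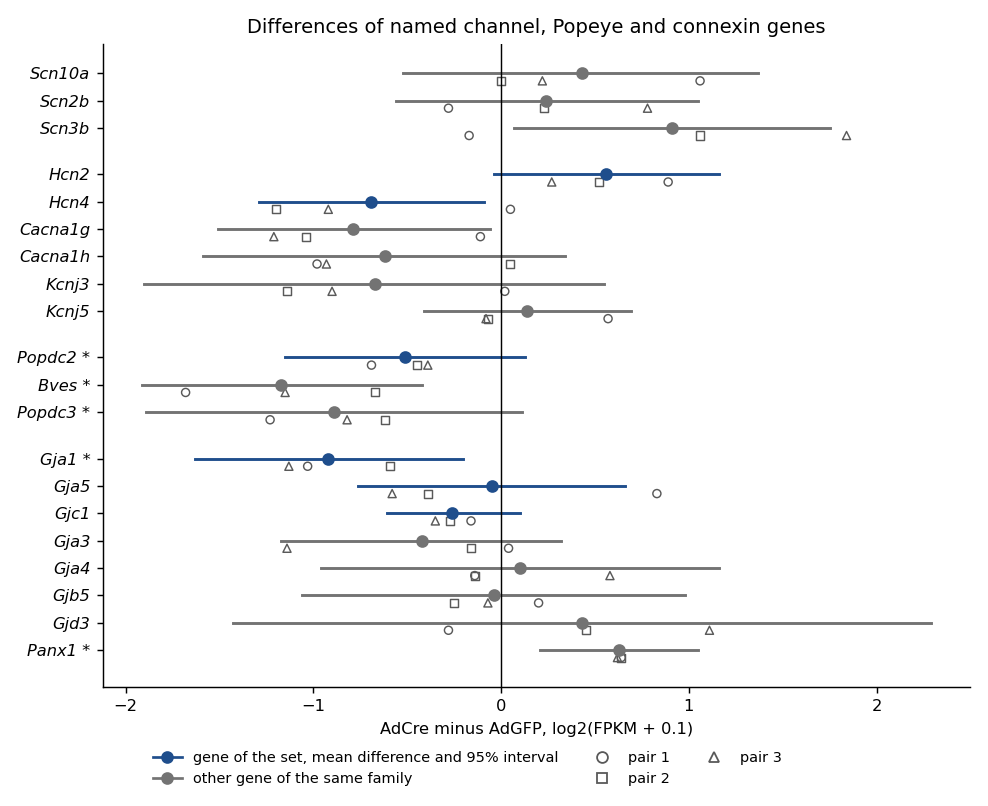
Difference of AdCre minus AdGFP in log2(FPKM + 0.1) for tested genes of the sodium channel, pacemaker channel, Popeye, connexin and pannexin lists. Filled points and lines are the mean difference and its 95% interval in limma without the block, open symbols are the differences within the 3 pairs, and asterisks mark genes that passed with the block. Gja1 lies below 0 with its interval and its 3 pairs, and the interval of Hcn4 lies below 0 while its pair 1 does not.

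Since cardiomyocyte transcripts were lower in AdCre, each gene was also set against the mean log2 level of the 12 cardiomyocyte markers in the same sample. That mean was 7.24, 7.21 and 6.72 in AdGFP 1 to 3 and 6.39, 6.76 and 5.90 in AdCre 1 to 3, a difference of -0.71 on the log2 scale (exact two-sided permutation p 0.2). In bulk RNA, fewer cells of a type and less RNA per cell cannot be told apart. Relative to the markers, the log2 difference of Gja1 was -0.21 (exact permutation p 0.5) and that of Popdc2 was 0.20 (p 0.5), with overlapping groups for both. The difference of Hcn4 was 0.02 (exact permutation p 1.0). Gja5 and Gjc1 differed by 0.66 and 0.45, also with overlap (exact permutation p 0.2 and 0.3). Within the pairs Gja1 was lower each time (-0.18, -0.14 and -0.31), Gjc1 higher (0.69, 0.18 and 0.47) and Gja5 higher (1.68, 0.06 and 0.24), and the exact sign-flip permutation test of 3 pairs gave p 0.25 for each, the smallest it can give.

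Hcn2 relative to the markers was -4.63, -4.41 and -4.38 in AdGFP 1 to 3 and -2.89, -3.43 and -3.29 in AdCre 1 to 3. All AdCre samples were higher than all AdGFP samples, by a difference of means of 1.27 (exact two-sided permutation p 0.1, and 0.35 when adjusted over the 7 genes). The marker mean itself differed by -0.71, so a gene with equal FPKM in both groups would also come out higher in AdCre here. The share of all genes whose groups are apart on this scale was not computed. Scn4b was likewise higher without overlap, by 1.61 (exact two-sided permutation p 0.1, adjusted 0.35), a value that depended on the pseudocount and was 0.84 with 1 and 2.65 with 0.01. For Hcn2 the groups overlapped in FPKM and were apart on this scale, and for Gja1 they were apart in FPKM and overlapped on this scale.

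**Figure D4:**
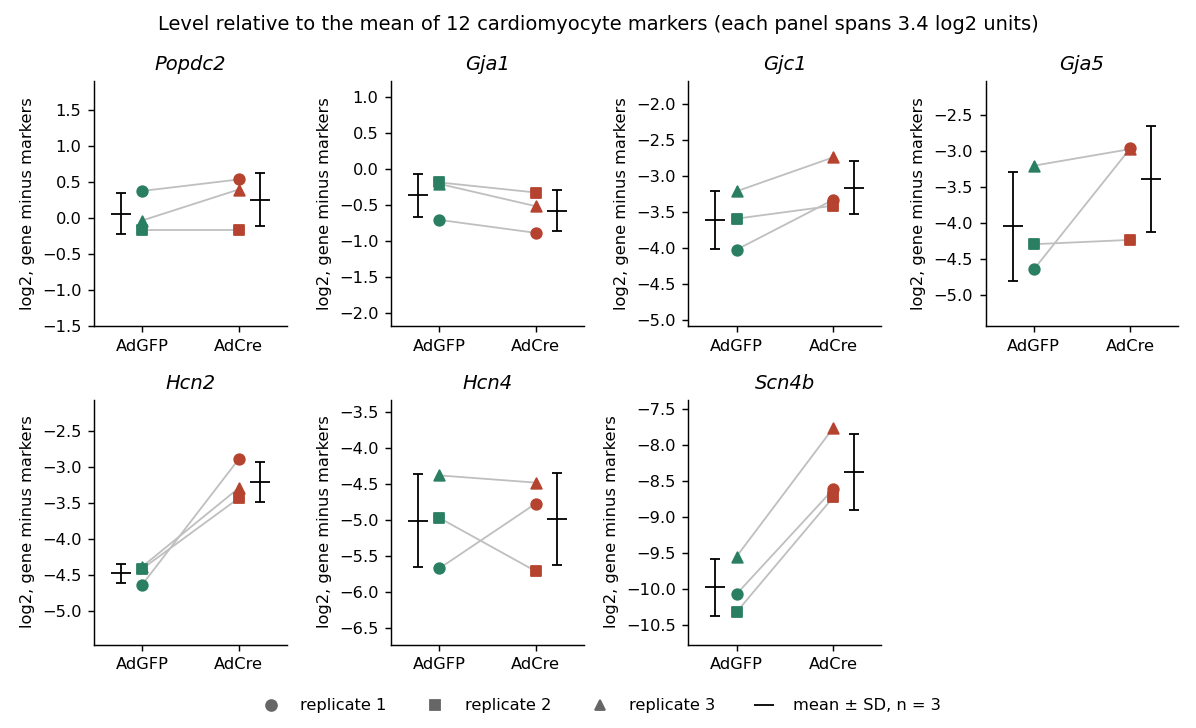
Log2(FPKM + 0.1) of each of the 7 genes minus the mean of 12 cardiomyocyte markers in the same sample (vertical axes, each spanning the same number of log2 units). Symbols mark replicate numbers, lines join pairs and bars show the mean ± SD of 3 samples. The groups are apart for Hcn2 and Scn4b, both higher in AdCre, and overlap for the other 5 genes.

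Of 23 transcription factors of the conduction system, 22 were tested and 19 were lower by their means, with a median log2 difference of -0.29. In limma 0 passed without the block, 8 had an unadjusted p under 0.05, all lower, beside 10.2% of all genes tested, and 5 passed with the block, again lower, beside 3.51% of all genes. These were Nkx2-5 (-0.69, adjusted p 0.0188), the Iroquois factors Irx5 (-0.79, adjusted p 0.0199) and Irx4 (-0.64, adjusted p 0.0312), Hopx (-0.94, adjusted p 0.0300) and Tbx18 (-0.45, adjusted p 0.0441). Nkx2-5, the cardiac homeobox factor, stood at 80.7, 77.8 and 61.3 FPKM in AdGFP and 51.9, 51.7 and 33.9 FPKM in AdCre. Tbx18, a factor of the sinus node and the epicardium, stood at 19.3, 18.3 and 19.3 FPKM in AdGFP and 12.8, 14.7 and 13.9 FPKM in AdCre. Both were lower in AdCre without overlap. Tbx3, a factor that represses working-muscle genes in the nodes, was at 1.23 ± 0.181 and 1.31 ± 0.445 FPKM (log2 difference 0.05). Shox2, a sinus node marker also on this list, had a log2 difference of -0.04. Irx4 is also on the list of ventricular markers, and the cardiomyocyte markers had a median log2 difference of -0.75. Whether the factors differed beyond the cardiomyocyte markers was not tested. Of 6 tested markers of the conduction system 3 were higher and 3 lower by their means, with a median log2 difference of -0.11. In limma 0 passed without the block, and 1 had an unadjusted p under 0.05, beside 10.2% of all genes tested. The same gene passed with the block, where 3.51% of all genes passed as lower. This was Rgs6, a regulator of G protein signaling in the parasympathetic control of heart rate, which was lower without overlap, at 2.64, 3.01 and 3.16 FPKM in AdGFP and 1.02, 1.29 and 1.33 FPKM in AdCre (log2 difference -1.21, SE 0.18, limma adjusted p 0.113, and 0.0153 with the block). Kcne1 and Vsnl1 had log2 differences of 0.40 (0.18 without AdGFP 1) and -0.27, with overlap. Irx4, Hopx and Tbx3 are named after their values were seen. Over all 8 lists without the 7 genes, 72 of 100 genes were tested, 23 higher and 49 lower by their means, with a median log2 difference of -0.25. In limma 0 of the 72 passed without the block, 21 had an unadjusted p under 0.05 (10.2% of all genes tested did), and 12 passed with it (6.15% of all), 11 of them lower.

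**Figure D5:**
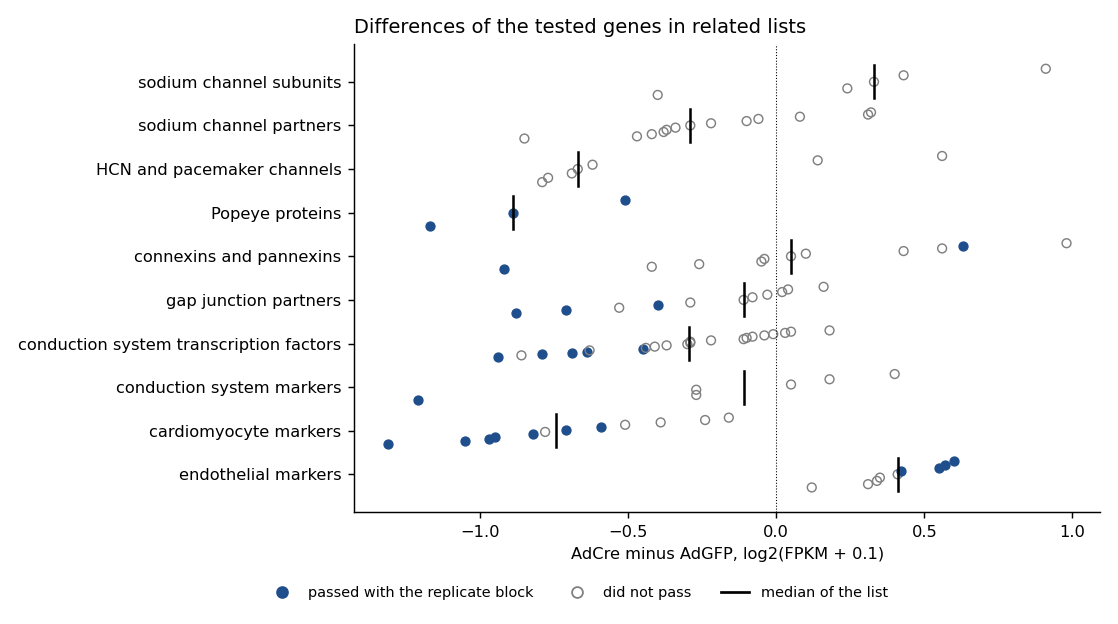
Difference of AdCre minus AdGFP in log2(FPKM + 0.1) for each tested gene of 8 lists around the conduction genes and of the cardiomyocyte and endothelial markers. Filled points passed in limma with the replicate block, open points did not, and vertical bars are the medians of the lists. The 3 Popeye genes and the 12 cardiomyocyte markers lie below 0 and the endothelial markers above it.

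The genes whose pattern over the 6 samples was most like that of each gene were found by the root mean square difference of gene-centred log2(FPKM + 0.1), among all genes tested. For Gja1 these were Lmod2 (0.081), Kcng2 (0.088) and Snap91 (0.118), where the pattern of Gja1 itself had a size of 0.591. Lmod2 encodes a protein that lengthens actin filaments in cardiac muscle. For Popdc2 they were Ndufv3 (0.053), Habp4 (0.066) and Hspb8 (0.066), beside a size of 0.415. For Hcn2 they were Nup62cl (0.109), Mt3 (0.112) and Atp6v0e2 (0.12), and for Scn4b Col2a1 (0.104), Mlkl (0.124) and Twist2 (0.126). The nearest genes to Hcn4 were farther from it, with Gm24474 first (0.163), followed by Ccdc149 (0.172) and Gm47547 (0.189). Gja5 had Gm11585 (0.09), Gm10561 (0.111) and Polm (0.132), and Gjc1, which varied least (0.196), had 1110051M20Rik (0.032), Cog5 (0.041) and Lrch1 (0.041).

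The remaining marker lists bear on the make-up of the cultures. Ventricular markers summed to between 655.7 and 885.3 FPKM in AdGFP and between 340.9 and 512.7 FPKM in AdCre, and 4 of 6 passed with the block, all lower. Of the 7 atrial markers 3 passed with the block, all lower, and of the 8 fibroblast markers 3, all lower, beside 3.51% of all genes tested. Without the block 0 genes of these lists passed in limma, and 2 ventricular, 1 atrial and 0 fibroblast markers were at an unadjusted p under 0.05, beside 10.2% of all genes. Macrophage markers ran from 49.0 to 267.2 FPKM in AdGFP and from 87.2 to 334.9 FPKM in AdCre, lowest in replicate 1 of both groups, and 2 of 6 tested passed with the block, both higher, beside 2.64% of all genes tested. Without it 0 of the 6 passed in limma, and 0 had an unadjusted p under 0.05. Of the 6 epicardial and mesothelial markers 4 were lower by their means, with a median log2 difference of -0.26. With the block 1 passed, Krt8, which was higher, beside 2.64% of all genes tested. Without it 0 of the 6 passed in limma (Krt8 adjusted p 0.329). Only Krt8 had an unadjusted p under 0.05 there, beside 10.2% of all genes. Mural markers (8), Schwann and neural markers (5 tested) and genes of RNA quality and stress (5 tested) had 0 pass in limma with or without the block, and those with an unadjusted p under 0.05 without it numbered 0, 2 and 0. The stress genes summed to 137.2 FPKM in AdGFP 1 and to between 35.7 and 51.3 FPKM in the other 5 samples. Red blood cell markers were below the level for testing, and Hbb-bt was listed at 0. The part of these cells in the values of the 7 genes was not tested.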

How the data were processed

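RNA was taken from neonatal mouse cardiomyocytes in 6 samples, 3 AdGFP and 3 AdCre, grouped by the labels. Per the labels, poly-T beads selected the messenger RNA, and random hexamers primed the cDNA. The submitters' processing notes name fastp, STAR 2.5, HTSeq 0.6.1 and mm10. The sources used here do not give the annotation or whether strand was used. The authors deposited FPKM values, 1 column a sample, with no pooling. Of 54532 gene IDs, 54495 matched GENCODE M21, which gave symbols, exon lengths and coordinates. FPKM times exon length gave whole reads in all samples, within 0.01 of a read, for 96.775% of the 28433 genes above 0, the 7 genes included. These reads give the depth, and counting error limits Scn4b most.

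Values were fitted as log2(FPKM + 0.1) in limma 3.58.1 (R 4.3.3; lmFit, eBayes with trend), for 13794 genes whose mean reached 0.5 FPKM, with Benjamini-Hochberg adjustment over all of them. Log2 differences on this scale understate those of low genes. The replicate number was fitted as a block in an alternative. The labels call the numbered samples biological replicates but do not say whether a number pairs samples of the 2 groups. Pairing was therefore judged from the values. Across genes, the deviations of same-numbered samples correlated at 0.568 (replicate 1), 0.268 (replicate 2) and 0.506 (replicate 3), while those of the remaining combinations ranged from -0.497 to 0.0364. Nothing in the labels says that the cultures had separate animals, so p-values measure the spread between these samples. Single values used exact two-sided permutation tests, whose smallest p is 0.1. Voom used the reads worked back, over genes with a mean of at least 10 reads, and this limit was set after the data were seen. Other alternatives were TPM, a pseudocount of 1 or of 0.01, a minimum mean of 1 FPKM or none, median centring, quantile normalization, no trend, and leaving out each sample or pair.

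The 7 genes and the lists were chosen with earlier results of these data known. Named were the 7 genes, the tested genes of the sodium channel, pacemaker channel, Popeye and connexin lists, the 3 genes with the smallest p of each other list, and the 3 nearest in pattern. Some genes of these lists, and 1 of the 6 ratios, are not reported here, and list counts include them. Python 3.11.15, numpy 2.4.6, pandas 2.3.3 and scipy 1.17.1 were used.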

Additional observations from a re-analysis of the deposited data

How the results depend on the processing

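Without the block, 1 gene of all tested passed, and 3 did with a pseudocount of 1, 4 without the trend, 0 without a filter, 0 with voom under either limit on reads, and 0 to 2 when 1 sample was left out. The replicate block gave 848, and in that fit 17 without a filter, 0 without the trend, 1655 with voom, 1801 with voom at a mean of at least 10 reads, 149 without pair 2 and 1 without pair 3. The 2 calls among the 7 genes (Gja1 -0.92, adjusted p 0.0214, and Popdc2 -0.51, adjusted p 0.0346) were made with the block only, and the block changed no other call among them in the FPKM fit. Among the related genes, those passing went from 0 to 14 with the block, Gja1 and Popdc2 included. With voom and the block, Hcn2 passed too (0.66, adjusted p 0.0133, and 0.0127 at a mean of at least 10 reads). Scn4b was 0.90 in the fit without a filter and 2.17 with voom at a mean of at least 10 reads, a limit that it passed only through its AdCre samples, so no test is drawn from that fit.

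Gja5 changed sign: 0.04 in TPM, 0.03 with voom under both limits, and -0.28 to 0.20 when 1 sample was left out. With the block it was 0.04 in TPM, 0.03 with voom, -0.49 without pair 1 (adjusted p 0.0667), 0.12 without pair 2 and 0.22 without pair 3. Leaving out 1 sample also turned the ratio of Gja5 to Gjc1 (-0.09 to 0.51), Hcn4 relative to the markers (-0.31 to 0.38, and -0.06 after quantile normalization), Kcnj5 (-0.13 to 0.29), Gja4 (-0.37 to 0.48), Gjd3 (-0.41 to 1.03), Vsnl1 (-0.69 to 0.24) and Gjb5 (-0.40 to 0.34, 0.04 in TPM and 0.02 with voom), and the medians of the connexin and pannexin list (-0.16 to 0.20) and of the conduction system markers (-0.27 to 0.25). The medians of the sodium channel partners and the gap junction partners ran from -0.42 to -0.11 and from -0.27 to -0.09. Relative to the markers, Gja1 ran from -0.38 to -0.05, Popdc2 from 0.06 to 0.41, Gja5 from 0.36 to 1.08 and Gjc1 from 0.24 to 0.65. The FPKM differences of Hcn2, Hcn4, Gja1, Gjc1 and Popdc2 kept their direction in all alternatives run, as did that of Scn4b in the 2 that could include it, while Hcn4, Gjc1 and Popdc2 had differences above 0 relative to the markers. The largest shift of the median of all genes was 0.08, in TPM. The cause of these changes was not tested.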
